A study of Mus musculus with 4 samples.

Results

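The genes described here are the TGF-beta ligands Tgfb1, Tgfb2 and Tgfb3, their receptors Tgfbr1, Tgfbr2 and Tgfbr3, and the latent TGF-beta binding proteins Ltbp1, Ltbp2, Ltbp3 and Ltbp4. They were picked by gene name, from a list chosen with earlier results of these data known. All 10 symbols were found among the 47643 genes of the authors' deposited table. The symbol Ltbp4 had 2 entries, and the second (ENSMUSG00000108715.1, mm10 chromosome 7, 27311715 to 27333604), which lies inside the first, had at most 11 reads in any library and was left out of the counts. The other 10 entries each had at least 10 reads in at least 2 libraries, as did 17117 of all genes listed.

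The cells came from the periosteum, the membrane on the outer surface of bone, of mouse femoral shafts. All mice carried 1 Sox9CreErt2 allele (Sox9tm1(cre/ERT2)Haak), a tamoxifen-inducible Cre recombinase placed in the Sox9 locus, and 1 Td-Tomato reporter allele (Gt(ROSA)26Sortm14(CAG-tdTomato)Hze), so both groups share these alleles and the tamoxifen: 3 intraperitoneal injections of 100 µL at 20 mg/mL, 48 h apart. Bones were taken 2 weeks after the last injection and digested with liberase, and red and non-red cells were sorted, about 10000 of each from 18 femora of 9 mice in 2 collections. The red (TdTomato-positive) cells had active Cre in the Sox9 locus at the time of tamoxifen or descend from such cells, and the TdTomato-negative cells are all others released from the same surface, with no gate on a cell type given in the labels. The age of the animals is not given in the sources used here. Each group has 2 libraries, 1 per collection, each from pooled mice, so no p-value given here measures the spread between mice.

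TGF-beta is secreted in a latent form, folded inside its own propeptide, and in most tissues a latent binding protein ties that complex to fibrillin and fibronectin in the matrix until integrins, proteases or thrombospondin release it. The free ligand binds the type II receptor TGFBR2, which recruits and activates the type I receptor TGFBR1, whose kinase phosphorylates SMAD2 and SMAD3. TGFBR3, or betaglycan, is a co-receptor without a kinase that presents the ligand, TGF-beta2 above all. Bone matrix is a large store of latent TGF-beta, and the pathway is known for its action on skeletal progenitors, chondrocytes and osteoblasts.

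The deposited table gives group means and a fitted difference, but no column per library. With 2 libraries in a group these summaries fix a pair of values per group, and a value was given to a library where it made a whole number of reads there or where the other choice gave negative reads. The libraries are named here by their group and implied depth: the positive libraries had 32.0 and 41.6 M reads and the negative libraries 17.0 and 74.0 M. For Tgfbr3, Ltbp1, Ltbp3 and Ltbp4 the values do not say which positive library holds which of 2 solutions, and both are given. The other 6 genes were settled in both groups, and the negative libraries were settled for all 10. Levels are given as reads per M reads of the library (RPM). Sox9 itself was read at 90.7 and 25 RPM in the positive libraries of 32.0 and 41.6 M, and at 18.4 and 0.135 in the negative libraries of 17.0 and 74.0 M. A false discovery rate (FDR) of 0.05 was passed in the authors' deposited table by 3 genes of all listed, namely Col2a1, Mia and Bglap, which mark chondrocytes and osteoblasts, and all were higher in the positive group. For the genes described here the deposited p followed the size of the difference of mean logs and not the spread of a gene's libraries. Tgfbr2 and Tgfbr3, with log2 differences of mean logs of 0.42 and 0.47, had a deposited p of 0.769 and 0.745. From lowest to highest their libraries spanned 1.59-fold for Tgfbr2 and 15.3- to 20.4-fold for Tgfbr3.

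The sequences just before the start sites of Tgfb1, Tgfb2 and Tgfbr2 are shown as examples of genes with unlike patterns. These are a ligand at a near-equal level in all libraries, a ligand that spans 1451-fold, and the receptor gene whose groups were apart. They are 250 bases each from RefSeq on GRCm38.p6, written 5′ to 3′ on the strand of the gene, at chr7:25686752-25687001 (plus strand), chr1:186705990-186706239 (minus strand) and chr9:116175364-116175613 (minus strand). Capitals mark TATAAA, the letters of a TATA box, and GGGCGG, those of a GC box, on either strand.
Tgfb1: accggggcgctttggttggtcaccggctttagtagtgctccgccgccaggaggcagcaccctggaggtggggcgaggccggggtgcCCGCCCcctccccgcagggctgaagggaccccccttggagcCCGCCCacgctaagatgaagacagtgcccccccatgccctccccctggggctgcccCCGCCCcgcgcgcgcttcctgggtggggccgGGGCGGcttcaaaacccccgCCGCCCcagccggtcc
Tgfb2: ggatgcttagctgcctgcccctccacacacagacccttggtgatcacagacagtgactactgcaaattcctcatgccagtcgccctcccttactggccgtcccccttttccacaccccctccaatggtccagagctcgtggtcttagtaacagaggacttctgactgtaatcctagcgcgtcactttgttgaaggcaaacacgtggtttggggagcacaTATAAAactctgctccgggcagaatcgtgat
Tgfbr2: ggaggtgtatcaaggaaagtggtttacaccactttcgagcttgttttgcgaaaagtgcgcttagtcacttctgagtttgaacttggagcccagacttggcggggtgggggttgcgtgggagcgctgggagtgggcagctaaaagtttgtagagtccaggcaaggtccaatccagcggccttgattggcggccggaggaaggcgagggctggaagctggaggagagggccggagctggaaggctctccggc
The Tgfb1 window held 5 GC boxes, no TATAAA and 75.2% G and C. The Tgfb2 window held 1 TATAAA, no GC box and 53.6% G and C, and the Tgfbr2 window held neither motif at 58.4%. Of 32851 promoter windows of this length, 12.4% held a TATAAA and 32.7% a GC box. The table of promoters held 12 windows for 8 of the members, with no entry for Tgfb3 and Tgfbr3: TATAAA was found for Tgfb2 alone, and a GC box in 6 windows of 4 members, which are Tgfb1, Tgfbr1, Ltbp2 and Ltbp4. The letters ACAANG, with N for any base, the core that SOX proteins bind, matched in 5 windows of Ltbp1, Tgfb2 and Tgfbr1, and in 36.3% of all windows. Matches may overlap one another, both strands were searched, and a match describes the letters only.

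Among the ligands, Tgfb1 was near-equal in the 4 libraries, while Tgfb2 and Tgfb3 ranged over orders of magnitude, with their lowest value in the negative library of 74.0 M reads. Tgfb1 (ENSMUSG00000002603.15, chromosome 7, 25687002 to 25705077, plus strand), the ligand that blood and immune cells make most, was read at 64.9 and 108 RPM in the positive libraries of 32.0 and 41.6 M and at 68.0 and 116 in the negative libraries of 17.0 and 74.0 M. The groups overlapped, each with a lower and a higher library, and the highest value was 1.78 times the lowest. These values rest on 2074, 4496, 1154 and 8561 reads. In the authors' deposited table the ratio of positive to negative group means was 0.830 (log2 of -0.27) with p = 0.933.

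Tgfb2 (ENSMUSG00000039239.14, chromosome 1, 186622792 to 186705989, minus strand), the ligand best known from skeletal and heart development, was read at 78.4 and 9.06 RPM in the positive libraries of 32.0 and 41.6 M. In the negative libraries of 17.0 and 74.0 M it was read at 25.9 and 0.0541, the latter from 4 reads. The negative library of 17.0 M thus lay between the positive ones, and the groups overlapped. The highest value was 1451 times the lowest. The authors' deposited table gives a ratio of 1.47 (log2 of 0.56, or 1.29 once a second scaling by depth in the deposited means is undone), a difference of mean logs of 1.16 on the log2 scale and p = 0.418.

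Tgfb3 (ENSMUSG00000021253.6, chromosome 12, 86056744 to 86079041, minus strand), a ligand of mesenchymal tissues that is widely used to induce cartilage in culture, was read at 175 and 30.7 RPM in the positive libraries and at 48.3 and 0.743 in the negative ones, in the same order of depths. The pattern is that of Tgfb2: the 32.0 M positive library was highest, the 17.0 M negative library came next, and the 74.0 M negative library held 55 reads against 820 in the shallower one. In the authors' deposited table the ratio was 2.10 (log2 of 1.07, or 1.98 with that scaling undone), the difference of mean logs 2.60 and p = 0.0679. The 3′ part of Tgfb3 shares its location with the end of Ttll5 on the other strand, whose highest count under the settled solution was 729 reads, and whether the counting used strand is not given in the sources used here.

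**Figure D1:**
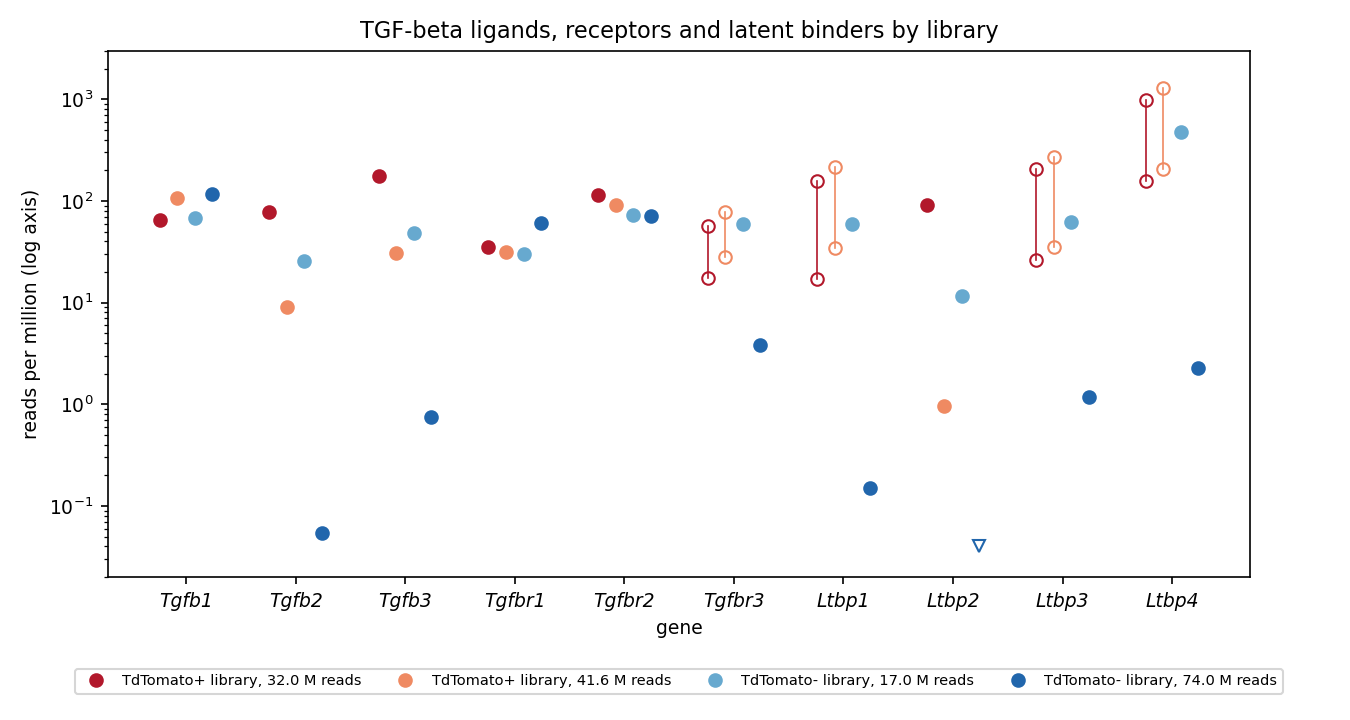
RPM (log axis) of each gene in the 4 libraries, with red and orange for TdTomato-positive and light and dark blue for TdTomato-negative. Open circles joined by a line are the 2 solutions where the library is not settled, and the triangle is the level of 3 reads for Ltbp2, which had none in the 74.0 M negative library; Tgfb1, Tgfbr1 and Tgfbr2 stay within 2.01-fold, and the other genes are lowest in the 74.0 M negative library.

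The makeup of the ligand reads differed more between the 2 libraries of a group than between the groups. Tgfb1 took 20.4% of the reads of the 3 ligands in the positive library of 32.0 M (95% Wilson interval 19.6 to 21.2) and 73.1% (72.0 to 74.2) in that of 41.6 M. In the negative libraries it took 47.8% (45.8 to 49.8) at 17.0 M and 99.3% (99.1 to 99.5) at 74.0 M. Tgfb3 took 55.0% (54.1 to 56.0) and 20.8% (19.8 to 21.8) in the positive libraries, and 34.0% (32.1 to 35.9) and 0.638% (0.491 to 0.830) in the negative ones. Tgfb2 took 24.6%, 6.13%, 18.2% and 0.0464% in the same order. The intervals cover counting error only, and the libraries of each group lay far outside one another's intervals. Divided by exon length, Tgfb3 was the leading ligand in the 32.0 M positive library, with 66.2% of the summed level, and in the 17.0 M negative one, with 44.3%. Tgfb1 led in the other 2, with 66.8% in the 41.6 M positive library and 99.0% in the 74.0 M negative one. The 3 ligands together came to 319, 148, 142 and 116 RPM, so the sum varied less than its makeup.

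**Figure D2:**
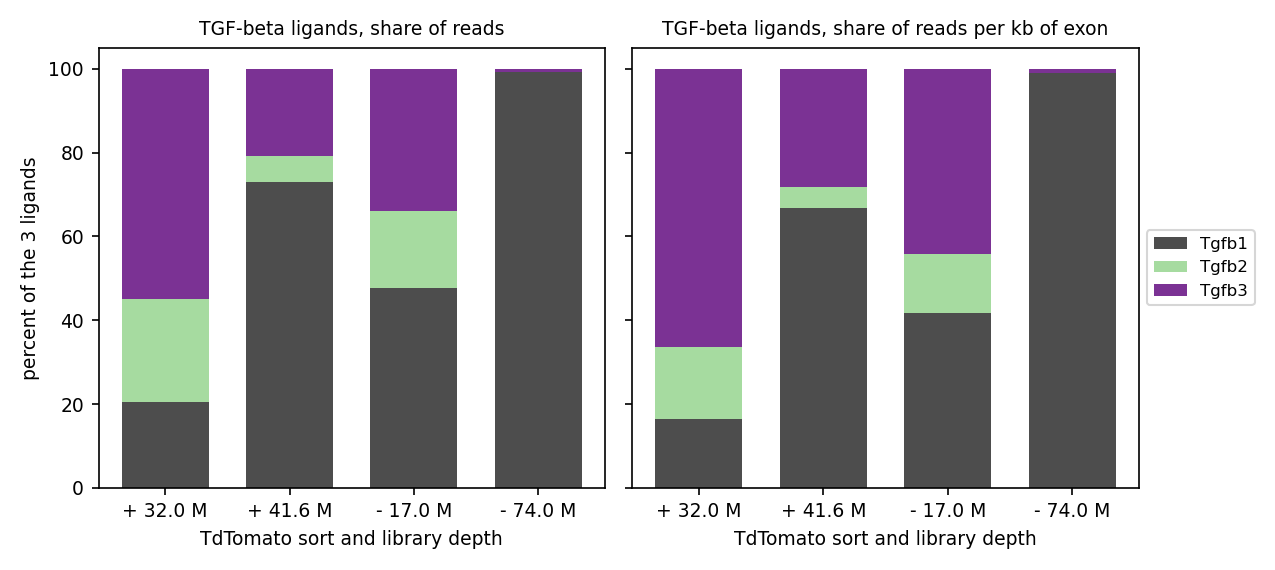
Stacked bars of the share of each ligand in each library, in percent of the 3 ligands: reads on the left, reads per kilobase (kb) of exon on the right, with + and - for the sort and the depth under each bar. Tgfb1 fills 99.3% of the bar of the 74.0 M negative library and 20.4% of that of the 32.0 M positive library.

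Of the receptors, the kinase pair Tgfbr1 and Tgfbr2 varied little, and Tgfbr3 varied by 15.3- to 20.4-fold, lowest in the 74.0 M negative library. Tgfbr2 (ENSMUSG00000032440.12, chromosome 9, 116087698 to 116175363, minus strand), the ligand-binding kinase, was read at 114 and 91.4 RPM in the positive libraries and at 72.4 and 71.8 in the negative ones. The positive libraries were both above the negative pair, with the nearest negative library, that of 17.0 M, at 0.792 times the 41.6 M positive one. It was the only member of the 10 with groups apart under every solution, against 15.8% of all genes with at least 10 reads in 2 libraries that were apart in that direction and 13.4% in the other. With 2 libraries in each group an exact two-sided permutation test cannot go below p = 0.33. In the authors' deposited table the ratio of Tgfbr2 was 1.07 (log2 of 0.09, or 0.47 with the second scaling undone), the difference of mean logs 0.42 and p = 0.769. On RPM limma gave a log2 difference of 0.50 with a standard error (SE) of 0.53 and an adjusted p of 0.739.

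Tgfbr1 (ENSMUSG00000007613.15, chromosome 4, 47353222 to 47414931, plus strand), the kinase that passes the signal to the Smads, was read at 35.0 and 31.4 RPM in the positive libraries and at 30.0 and 60.3 in the negative ones. Of these 4 values 3 lay close together, and the 74.0 M negative library stood above them at 2.01 times the 17.0 M one. In the authors' deposited table the ratio was 0.723 (log2 of -0.47) and p = 0.800.

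Tgfbr3 (ENSMUSG00000029287.14, chromosome 5, 107106570 to 107289629, minus strand), the co-receptor betaglycan, was read at 58.9 RPM in the 17.0 M negative library and at 3.85 in the 74.0 M one, a ratio of 15.3. The positive libraries held either 56.1 at 32.0 M and 28.3 at 41.6 M, or 17.5 and 78.6, so they overlapped the negative ones under both solutions. The direction of its group difference depends on the measure. In the authors' deposited table the ratio of means was 0.711 (log2 of -0.49, or 0.28 with the second scaling undone), while the difference of mean logs was 0.47, with p = 0.745. The receptors made up different mixtures in the negative libraries: Tgfbr3 took 36.5% of the receptor reads at 17.0 M and 2.83% at 74.0 M, and Tgfbr1 18.6% and 44.3%. The receptor sum stayed between 136 and 206 RPM in all 4 libraries.

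The latent binders together were read at 3.61 RPM in the 74.0 M negative library, at 614 in the 17.0 M one and at 275 or more in each positive library, with Ltbp2 low in the 41.6 M positive library as well. Ltbp4 (ENSMUSG00000040488.16, chromosome 7, 27305136 to 27337692, minus strand), a matrix protein needed for elastic fibres that carries latent TGF-beta, was read at 481 RPM in the 17.0 M negative library and at 2.28 in the 74.0 M one. The positive libraries held either 993 at 32.0 M and 205 at 41.6 M, or 157 and 1293. Under either solution the 17.0 M negative library lay between the positive ones, so the groups overlapped. The authors' deposited table gives a ratio of 1.27 (log2 of 0.34, or 1.30 with the second scaling undone), a difference of mean logs of 3.10 (8.55-fold) and p = 0.0305 with an FDR of 1.00. This was the only member under an unadjusted p of 0.05, a level that 0.894% of all genes listed reached. In the direction of Ltbp4, higher in the positive group by mean logs, 0.598% of all genes listed reached it, and in the other direction 0.296%. Of the 17117 genes with at least 10 reads in 2 libraries, 271 reached it in the direction of Ltbp4 and 101 in the other. In limma on RPM, with the solution whose positive libraries differ less, the unadjusted p of Ltbp4 was 0.234.

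Ltbp3 (ENSMUSG00000024940.10, chromosome 19, 5740904 to 5758532, plus strand), which carries latent TGF-beta and is needed for normal skeletal growth, was read at 62.7 RPM in the 17.0 M negative library and at 1.18 in the 74.0 M one. In the positive libraries it held either 208 at 32.0 M and 35.1 at 41.6 M, or 26.5 and 271. The groups overlapped under both. The authors' deposited table gives a ratio of 1.94 (log2 of 0.96, or 1.87 with the second scaling undone), a difference of mean logs of 2.63 and p = 0.0654.

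Ltbp1 (ENSMUSG00000001870.15, chromosome 17, 75005568 to 75392512, plus strand), the first known carrier of latent TGF-beta, was read at 58.8 RPM in the 17.0 M negative library and at 0.149 in the 74.0 M one, from 998 and 11 reads. In the positive libraries it held either 156 at 32.0 M and 34.1 at 41.6 M, or 17.2 and 215, again on both sides of the 17.0 M negative library. The authors' deposited table gives a ratio of 1.25 (log2 of 0.32, or 0.97 with the second scaling undone), a difference of mean logs of 0.91 and p = 0.530.

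Ltbp2 (ENSMUSG00000002020.15, chromosome 12, 84783212 to 84876532, minus strand), a family member that binds fibrillin but not latent TGF-beta, was settled in all libraries. It was read at 90.9 and 0.961 RPM in the positive libraries of 32.0 and 41.6 M, and at 11.5 in the negative library of 17.0 M. The 74.0 M negative library had no read, which allows up to 0.0405 RPM at 3 reads. A single library, the 32.0 M positive one, thus carried most of the Ltbp2 signal, 94.5 times the other positive library and 7.91 times the 17.0 M negative one. The authors' deposited table gives a ratio of 2.50 (log2 of 1.32, or 1.87 with the second scaling undone), a difference of mean logs of 1.16 and p = 0.417. Without the 32.0 M library the log2 difference in limma went from 2.24 to -0.74.

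Per kb of exon, the scale on which genes can be compared, the members fell into a different order in each negative library. In the 17.0 M negative library Ltbp4 led with 74.3 reads per kb of exon per M reads (RPKM), ahead of Tgfb3 at 14.3 and Tgfb1 at 13.5, which lay close together. Tgfbr3 at 9.01 and Tgfbr2 at 8.84 came next, then Ltbp3 at 6.92, Ltbp1 at 5.50, Tgfbr1 at 4.60, Tgfb2 at 4.48 and Ltbp2 at 1.40. In the 74.0 M negative library Tgfb1 led with 22.9 RPKM, followed by Tgfbr1 at 9.22 and Tgfbr2 at 8.77. The other 7 genes were at or under 0.588 RPKM there. Neighbours in these orders cannot be set against a spread, since each order is that of 1 library. Ltbp4 was the leading latent binder in both negative libraries, with 78.3% of the reads of the 4 binders in the 17.0 M negative library (77.5 to 79.1) and 63.3% (57.4 to 68.9) in the 74.0 M one. In the 32.0 M positive library, with the closer solution for the genes that are not settled, Ltbp4 led at 154 RPKM, then Tgfb3 at 51.8 and Ltbp3 at 22.9. The group levels as deposited, each a mean multiplied by gene length, were 556 and 439 for Ltbp4 in the positive and negative groups, 211 and 109 for Ltbp3, 142 and 67.7 for Tgfb3 and 131 and 158 for Tgfb1. On that scale a gene with no read stands at 2.77 and 3.62, and the other 6 members were at 35.7 or under in both groups.

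The 2 negative libraries differed widely from each other. In 7 of the 10, which are Tgfb2, Tgfb3, Tgfbr3 and all 4 Ltbp genes, the 74.0 M negative library was under 0.1 times the 17.0 M one, as in 14.8% of the settled genes with at least 10 reads in 2 libraries. The 17.0 M library exceeded the 74.0 M one by 15.3-fold for Tgfbr3, 53.3-fold for Ltbp3, 65.0-fold for Tgfb3, 211-fold for Ltbp4, 396-fold for Ltbp1 and 479.6-fold for Tgfb2, and by at least 283-fold for Ltbp2. Tgfb2, Tgfb3 and Ltbp2, the settled members of this kind, also shared 1 order of libraries, from the 32.0 M positive over the 17.0 M negative and the 41.6 M positive to the 74.0 M negative, an order found in 1207 of 12015 settled genes. Tgfb1, Tgfbr1 and Tgfbr2 did not have it.

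Markers of cell types also differed between the libraries, some in the direction of these values and some not. The summed level of 6 markers of periosteal fibroblasts and tendon (Postn, Prrx1, Pdgfra, Col3a1, Scx and Tnmd) was 4470.2 RPM in the 17.0 M negative library and 8.51 in the 74.0 M one, next to 614 and 3.61 for the 4 latent binders. The positive libraries held 2453 to 11184 for these markers at 32.0 M and 2581 to 13949.9 at 41.6 M over all solutions. The 7 neutrophil markers summed to 60292 to 89439 in the 74.0 M negative library, 17136 to 23821 in the 17.0 M one, and 7365 to 17364 and 17273 to 30292 in the positive libraries. The 6 general leukocyte markers ran from 4028 to 6874 in the 74.0 M library and from 434 to 2236 over the other 3. The 6 macrophage markers stood at 373 to 443 in the 17.0 M negative library and 265 to 569 in the 74.0 M one. For the 6 osteoblast markers these values were 3344 to 3448 and 50.8 to 505. The 6 platelet and megakaryocyte markers stood at 1465 to 2010.3 in the 41.6 M positive library against 22.1 to 482 in the other 3. The 6 chondrocyte markers summed to 3477 to 4749 and 2535 to 4192 in the positive libraries, to 146 in the 17.0 M negative one, where Mia had no read, and to 0.365 in the 74.0 M one, where Acan and Mia had none. The part of this cell makeup in the values of the TGF-beta genes was not tested. In sorted bulk RNA fewer cells of a type and less RNA per cell cannot be told apart.

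**Figure D3:**
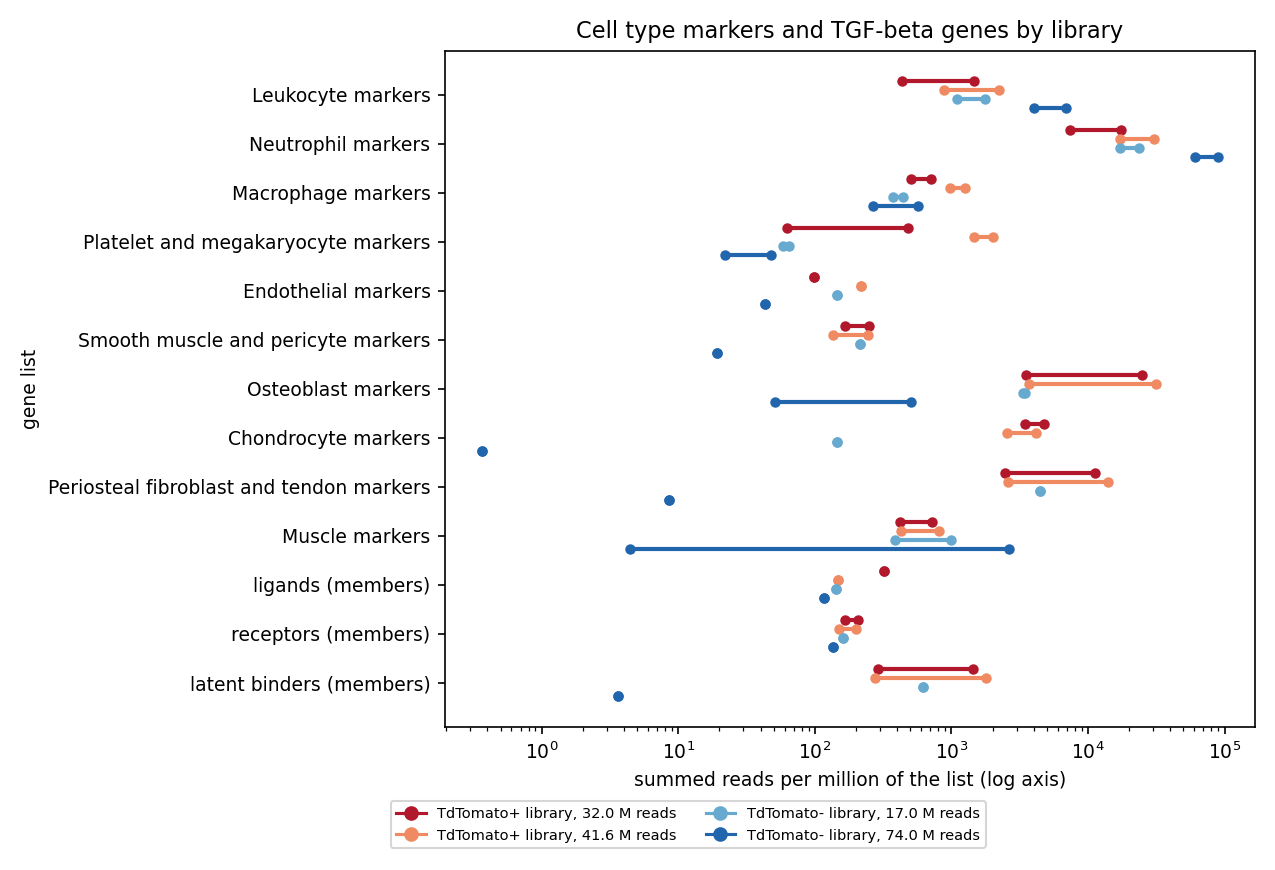
Summed RPM (log axis) of each cell type marker list and of the ligands, receptors and latent binders, 1 symbol per library and a bar over all solutions where a gene is not settled. Latent binders and fibroblast markers are lowest in the 74.0 M negative library (3.61 and 8.51), where the neutrophil markers are highest.

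None of the members passed an FDR of 0.05 in the authors' deposited table (0 of 10, with an FDR of 1.00 for each), where 0.00630% of all genes listed did. By the sign of the difference of mean logs 8 of the 10 were higher in the positive group, with a median of 1.03 on the log2 scale. Among all genes with at least 10 reads in 2 libraries 51.0% had that sign, with a median of 0.02. By the ratio of means 7 of the 10 were above 1, with a median log2 of 0.33 against -0.26 for all these genes. The size of a difference depended on the measure. For Ltbp4 the log2 value was 0.34 by the ratio and 3.10 by mean logs. In limma on log2(RPM + 0.5) none of 14633 genes passed an adjusted p of 0.05 and 917 (6.27%) had an unadjusted p under 0.05, with no member among them. With the closer solution for the genes that are not settled, and without the 17.0 M negative library, 6 of the members had an unadjusted p under 0.05, as did 13.3% of all genes in that fit, and none passed after adjustment. Without the 74.0 M negative library the limma log2 difference of Ltbp4 was -0.09 in place of 3.63. With the libraries paired as a replicate block, on the 3622 settled genes with at least 1 RPKM in 2 libraries, limma called 1.30% of genes under the pairing of 32.0 with 17.0 M and none under the other, and 28.1% and 2.43% had an unadjusted p under 0.05. Of the 3 members in these fits (Tgfb1, Tgfb3 and Tgfbr2) none was called. Over the limma fits tried, the lowest adjusted p of a member was 0.0722, for Tgfb3.

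**Figure D4:**
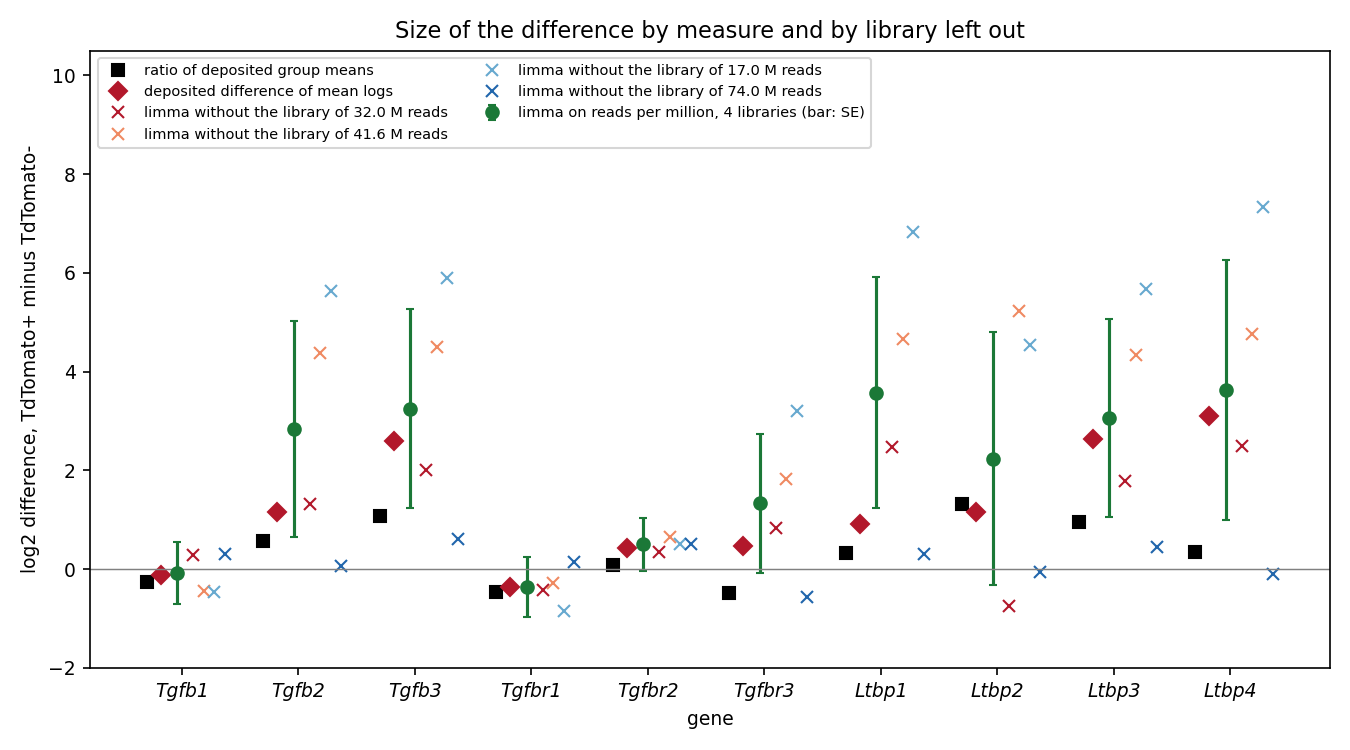
Log2 difference of positive minus negative for each gene by 3 measures, and by limma with each library left out in turn (crosses); bars are 1 SE over 2 and 2 libraries. For the Ltbp genes, Tgfb2 and Tgfb3 the cross without the 74.0 M negative library lies at or under 0.60, and that without the 17.0 M one at or above 4.53.

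Of 46 other genes of the pathway, listed by role, 44 had at least 10 reads in 2 libraries. None passed an FDR of 0.05 in the authors' deposited table, and 9 had an unadjusted p under 0.05, all higher in the positive group. In that direction 0.598% of all genes listed were under 0.05, many of which had no read. Of the 17117 genes with at least 10 reads in 2 libraries, 271 were under it in that direction and 101 in the other. In limma on RPM none of the 44 passed and 1 had an unadjusted p under 0.05. By the difference of mean logs 31 of the 44 (70.5%) were higher in the positive group, with a median of 0.52 on the log2 scale. The positive pair was above the negative pair for 5 genes (Fbn2, Bambi, Cd109, Vasn and Tgfbi) and below it for 4 (Acvrl1, Tgfbrap1, Smad2 and Smad4) of the 44, against 15.8% and 13.4% of all genes with at least 10 reads in 2 libraries. Cd109, Tgfbrap1 and Smad2 are named only because their values put them among these.

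Of 10 genes that release or activate the latent complex, 9 had enough reads and 5 of the 9 were higher by mean logs; none was under an unadjusted 0.05 in the authors' deposited table. Itgb5, a partner of the integrin alpha v, was read at 81.9 and 7.53 RPM in the negative libraries of 17.0 and 74.0 M and at 53.1 to 255 in the positive ones. Itgb8, whose integrin frees TGF-beta1 and TGF-beta3 from the latent complex, was low, at 13.7 and 1.03 in the positive and 1.35 and 0.176 in the negative libraries. Thbs1, or thrombospondin 1, a platelet and matrix protein that activates latent TGF-beta, went the other way: 328 and 800.4 in the positive libraries, 794 to 1195 in the 17.0 M negative and 3465 to 5215 in the 74.0 M one. Its groups overlapped under some solutions, and its ratio in the authors' deposited table was 0.252 with p = 0.171.

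All 4 matrix anchors of the latent binders were higher by mean logs, and none was under an unadjusted 0.05 in the authors' deposited table. Fbn1, or fibrillin 1, on which the binders are laid down, followed their pattern, with 219 RPM in the 17.0 M negative library, 1.03 in the 74.0 M one and 86.0 to 437 in the positive ones. Fbn2 was read at 14.8 and 2.26 in the positive libraries, 1.35 in the 17.0 M negative and not at all in the 74.0 M one. Emilin1, a matrix glycoprotein that restrains processing of the TGF-beta precursor, was read at 135 and 55.9 against 56.6 and 36.7. Fn1, or fibronectin, is not settled, at 272 to 1318 in the positive and 103 to 2141 in the negative libraries.

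Of the 6 accessory receptors and modulators, 3 had the positive pair above the negative pair and 2 had it below. Among all genes with at least 10 reads in 2 libraries these shares were 15.8% and 13.4%. With 6 genes the count is a description only. Bambi, a decoy receptor without a kinase, was read at 53.8 and 61.9 RPM in the positive libraries and at 15.1 and 17.0 in the negative ones, so both libraries of a group lay close together. In the authors' deposited table its ratio was 2.72 and its p 0.224, a p that does not reflect how close its libraries lay. Vasn, or vasorin, a membrane protein that binds and traps TGF-beta, was read at 128 and 41.1 against 26.5 and 1.85, with a ratio of 3.03 and p = 0.0372 in the authors' deposited table. Acvrl1, the type I receptor of endothelial cells, was lower, at 41.8 and 25.4 against 57.7 and 88.8, with a ratio of 0.426 in the authors' deposited table. The 6 endothelial markers summed to 99.0 and 218 in the positive and 145 and 43.4 in the negative libraries, with the lowest sum where Acvrl1 was highest.

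None of the 12 Smads and their regulators was under an unadjusted 0.05 in the authors' deposited table, and 5 of the 12 were higher by mean logs. Smad3, which carries the signal with Smad2, was read at 34.6 and 22.2 RPM in the positive and at 16.3 and 28.3 in the negative libraries, which overlap. Smad4, the shared partner, was read at 62.7 and 42.0 against 86.7 and 95.9, with a ratio of 0.485 and p = 0.576 in the authors' deposited table. Tgif2, a repressor that binds Smads, was low, at 5.79 to 8.44 in the positive and 1.64 to 18.2 in the negative libraries.

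All 4 matrix proteins that bind TGF-beta had an unadjusted p under 0.05 in the authors' deposited table, with log2 differences of mean logs of 4.64 for Dcn, 4.67 for Bgn, 4.93 for Fmod and 4.03 for Aspn and p-values of 0.00128, 0.00128, 0.000736 and 0.00497. Of all genes listed 0.598% were under 0.05 in that direction, as were 271 of the 17117 genes with at least 10 reads in 2 libraries. The p-values of these 4 genes follow the size of the differences and not the spread of the libraries, and their groups overlapped. Dcn, or decorin, was read at 1992 RPM in the 17.0 M negative library and 2.66 in the 74.0 M one, and at 871 to 9817 in the positive libraries. Bgn stood at 218 and 0.622 in the negative libraries, Fmod at 564 and 0.865 and Aspn at 285 and 0.108, so each was lower in the 74.0 M library, as the Ltbp genes were.

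Of 10 textbook response genes, 9 had enough reads, all 9 were higher by mean logs and 4 had an unadjusted p under 0.05. Of all genes with at least 10 reads in 2 libraries 51.0% were higher by mean logs. Under 0.05 in that direction were 271 of these 17117 genes and 0.598% of all genes listed. Col1a1 and Col1a2, the chains of type I collagen, had ratios of 3.96 and 2.98 in the authors' deposited table with p-values of 0.000349 and 0.000408. Both also mark osteoblasts and fibroblasts, and Col1a1 was read at 3173 RPM in the 17.0 M negative library and at 9.36 in the 74.0 M one. Tgfbi, a secreted adhesion protein named for its induction by TGF-beta, was near-equal, at 244 and 258 in the positive and 204 and 233 in the negative libraries. Its groups were apart by a small margin, and its ratio in the authors' deposited table was 0.908.

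**Figure D5:**
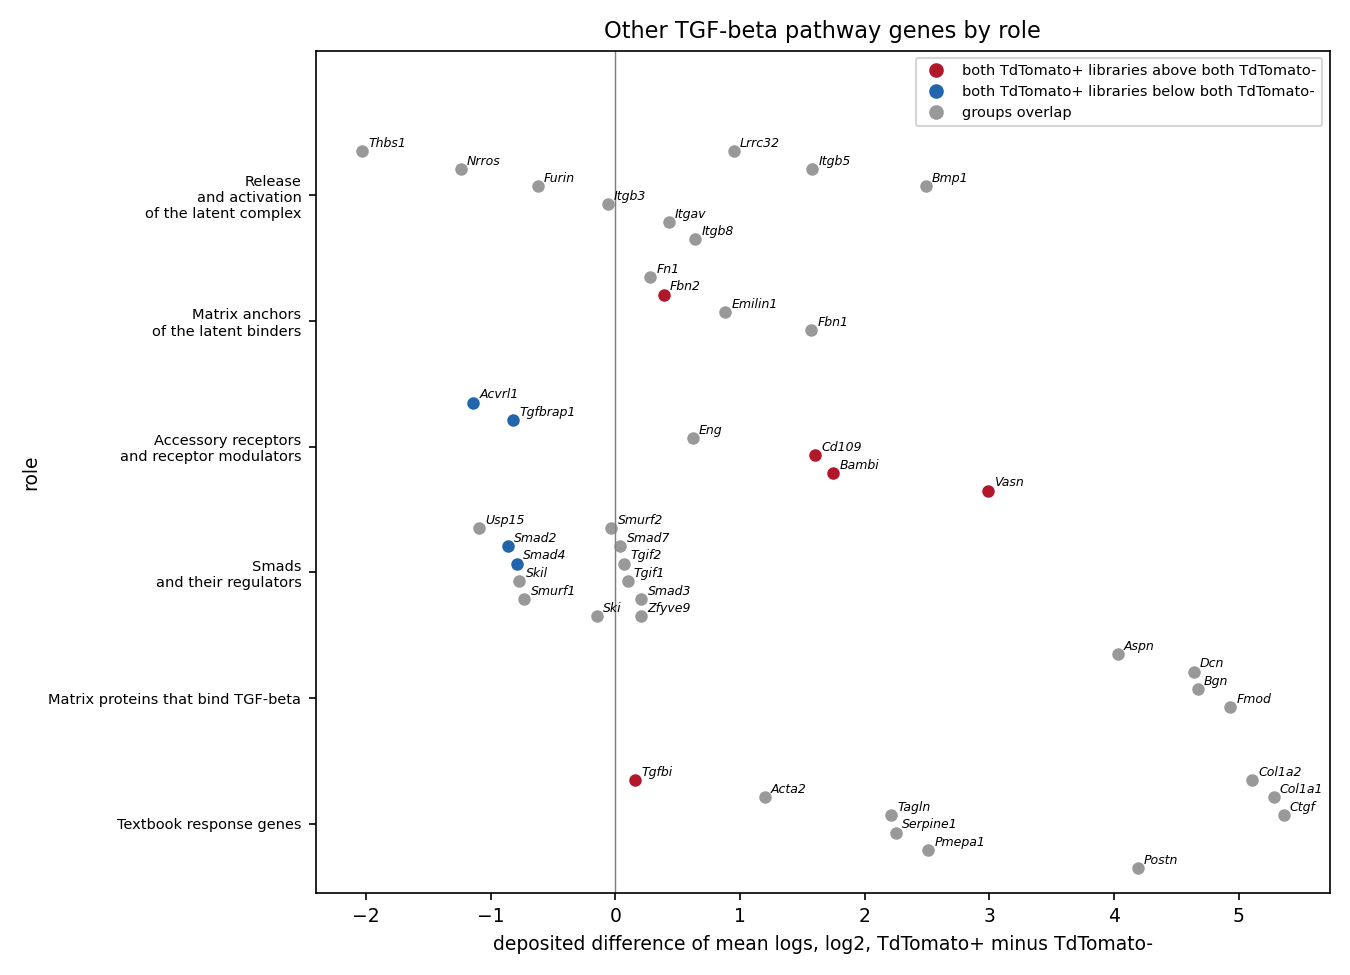
Deposited difference of mean logs (log2, positive minus negative) of the 44 other pathway genes by role, spread vertically for legibility. The 4 matrix proteins that bind TGF-beta lie between 4.03 and 4.93 and the 12 Smad genes between -1.09 and 0.21; red and blue mark the 9 genes whose groups were apart.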

How the data were processed

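RNA from 2 TdTomato-positive and 2 TdTomato-negative sorted samples was made into SMARTer low-input libraries and read as 75-nucleotide pairs, per the labels' protocols. Per the submitters' processing notes, STAR, Partek and the mm10 build were used. Not given in the sources used here: versions and use of strand in counting. Analysed here was the authors' own comparison table of 47643 genes. Per the file headers it holds group means of a normalized signal, a difference on the natural log scale, a ratio of means, totals and a signed fold change (each treated as a score), and a p-value of the authors' lognormal model with its FDR. It has no column per library.

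The 4 library values of each gene were solved from the deposited group means, highest value and log difference; every gene had exactly 1 solution, as a pair of values per group not yet given to libraries. The solved scale, inferred from the values, is RPKM on the genomic span plus 0.1, divided once more by span and depth, so a deposited mean weights each library by the inverse of its depth and a gene with no read has a ratio of 0.764. Reads per M reads (RPM) undo this. A value was given to the library in which it is a whole number of reads, within 0.01 reads plus 1e-05 of the reads and at most 0.05, or where the other choice gave reads under -0.5. A tolerance of 0.002 applied where a pair had a single whole value. Of 17117 genes with at least 10 reads in 2 libraries, 12015 (70.2%) were settled in both groups. Other reads are rounded, and fits took the solution whose 2 libraries differ less.

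The main test is the authors' deposited p and FDR, at 0.05 over all genes. As alternatives limma 3.58.1 (R 4.3.3) was run on log2(RPKM + 1), for genes with at least 1 RPKM in 2 libraries, and on log2(RPM + 0.5), with Benjamini-Hochberg adjustment, and tested on simulated data. The fits on RPM were chosen after seeing the data. All members are named, and from each role of the pathway list the 2 genes with the highest and the 1 with the lowest deposited fold, or all where a role has 4 or fewer. The members and lists were chosen with earlier results of these data known. Exon lengths are from the GENCODE annotation of mouse and promoters from RefSeq. A result on 1 further gene is not reported here.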

Additional observations from a re-analysis of the deposited data

How the results depend on the processing

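The count of members passing an FDR of 0.05 (0), that of other pathway genes (0) and that of members with groups apart (1) were the same under every alternative run. The limma fits on RPKM filtered by level held 5 members and 30 other pathway genes, and those on settled genes 3 and 12. On all 4 libraries no limma fit called any gene, save the pairing of 32.0 with 17.0 M. The counts of 0 were thus near fixed in advance. Several directions were not the same. Tgfb1, at -0.27, was 0.06 after quantile normalization of RPM. Tgfbr3, at -0.49, was 0.47 by the difference of mean logs, 0.28 with the second scaling by depth undone, 0.08 in limma with no filter on low values, and in limma on RPM 1.33, after quantile normalization 1.08 and with library medians made equal 1.26. The cause was not tested. Each library was also left out in turn. In limma on RPM the log2 differences ran from -0.46 to 0.30 for Tgfb1, 0.06 to 5.63 for Tgfb2 and 0.60 to 5.90 for Tgfb3. For the receptors they ran from -0.85 to 0.14 for Tgfbr1, 0.34 to 0.66 for Tgfbr2 and -0.56 to 3.21 for Tgfbr3. For the binders they ran from 0.31 to 6.83 for Ltbp1 and -0.74 to 5.22 for Ltbp2. Ltbp3 ran from 0.45 to 5.68 and Ltbp4 from -0.09 to 7.34. On RPKM, with settled genes only, the differences ran from -0.39 to 0.25 for Tgfb1, 0.39 to 2.29 for Tgfb3 and 0.16 to 0.34 for Tgfbr2. Against the same fit on all 4 libraries, the direction turned without the 32.0 M positive library for Tgfb1 and Ltbp2. The values were 0.23 on RPKM and 0.28 on RPM for Tgfb1, and -0.74 for Ltbp2. Without the 74.0 M negative library it turned for Tgfb1 (0.25 and 0.30), Tgfbr1 (0.14), Tgfbr3 (-0.56), Ltbp2 (-0.05) and Ltbp4 (-0.09). Tgfbr3, at 1.33 on all 4 libraries, stayed positive without the 32.0 M positive (0.84), 41.6 M positive (1.82) or 17.0 M negative library (3.21). Where a group keeps 1 library, that library is assumed to vary like the other group. For genes that are not settled these values hold for the closer solution only.

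The labels number the collections, but the deposited values carry no such number, so both possible pairings were fitted as a replicate block on 3622 settled genes. Pairing 32.0 with 17.0 M called 26 genes higher and 21 lower (1.30%), and the other pairing 0, with 88 at an unadjusted p under 0.05. Of the 3 members in these fits, which are Tgfb1, Tgfb3 and Tgfbr2, 0 were called under either pairing. Ranks in the 32.0 M positive library were taken with the closer solution for the genes that are not settled. Measured by exon length in place of span, the rank of a member there moved for 8 of the 10. It moved most for Ltbp1, from 9 to 4, and Tgfb1, from 4 to 7. Under its other solution Ltbp1 stood at 0.0445 RPKM by span and 1.61 by exon there, the lowest of the members on both scales. Reads were few for Tgfb2 (4 reads), Ltbp1 (11) and Ltbp2 (0) in the 74.0 M negative library, although it was the deepest.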
